A study of Mus musculus with 12 samples.

Results

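The genes described here are 46 genes of glutathione metabolism, of the NRF2 response and of superoxide and peroxide removal, out of 32498 rows with a gene name. They were listed by name and not by any measured value, although earlier results of these data were known when the list was made. They fall into 5 roles, namely 9 NRF2 targets that make or reduce glutathione and thioredoxin, 6 glutathione peroxidases and 21 glutathione transferases. The others are 4 superoxide dismutases and catalase, and 6 peroxiredoxins. RNA of tongue tissue was sequenced in bulk from 12 C57BL/6 mice, 6 in a vehicle group and 6 given gallic acid (GA), a plant phenol. All 12 had received the carcinogen 4-nitroquinoline 1-oxide (4NQO) in drinking water at 100 µg/mL for 16 weeks. From 4 weeks after the start of 4NQO, the GA group was gavaged with 100 mg/kg GA 5 times per week, and the vehicle group with the carrier alone. Each library was taken as 1 mouse, although the labels give replicate numbers and no animal identifiers, so that p-values measure the spread between these libraries. No tongue without 4NQO was analysed here, the age at collection is not given in the sources used here, and how the sequenced mice were picked from the larger cohort is not stated either.

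NRF2, the protein of Nfe2l2, is a transcription factor that KEAP1 marks for breakdown until oxidants or electrophiles modify KEAP1. NRF2 then pairs with small MAF proteins on antioxidant response elements and raises enzymes that make glutathione, the main thiol of the cell, and that reduce quinones and thioredoxin. Transferases conjugate electrophiles to glutathione, peroxidases and peroxiredoxins reduce peroxides, and dismutases turn superoxide into peroxide. 4NQO is a substrate of this system, since NQO1 can reduce it and glutathione can conjugate it. Gallic acid is known as an antioxidant, and the comparison addresses whether the group given it differed in these genes.

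The core of the antioxidant response element was searched as TGACNNNGC on both strands of RefSeq promoter windows (250 bases before to 50 bases after a transcription start, GRCm38). Windows existed for 40 of the 46 genes, and 9 of the 40 held the core (22.5%), against 3781 of 27025 genes with a window (14.0%). Counted over windows, 9 of 54 windows of these genes (16.7%) and 4071 of all 32851 (12.4%) held it. Matches lay in 3 of 7 NRF2 targets with a window, 4 of 19 transferases, 1 of 3 dismutases and catalase, 1 of 5 peroxiredoxins and 0 of 6 glutathione peroxidases. A match describes letters in these windows and no binding site, and elements farther away were not searched. The 9 matches are shown because the genes differ in how the core is filled in its free bases. They are written 5′ to 3′ on the strand of the gene with the core in capitals, which read TGAC first where it lies on the strand of the gene and end in GTCA where it lies on the other strand.
Gclm (chr3:122245398-122245456, plus strand): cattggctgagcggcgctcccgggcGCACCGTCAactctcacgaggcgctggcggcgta
Srxn1 (chr2:152105542-152105570, plus strand): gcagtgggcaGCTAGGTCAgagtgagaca
Txnrd1 (chr10:82859089-82859147, plus strand): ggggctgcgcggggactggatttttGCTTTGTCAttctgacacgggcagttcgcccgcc
Gsta3 (chr1:21240439-21240497, plus strand): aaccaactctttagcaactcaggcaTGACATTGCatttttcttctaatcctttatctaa
Gstm5 (chr3:107895787-107895845, plus strand): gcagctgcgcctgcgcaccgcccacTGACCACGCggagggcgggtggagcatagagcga
Gstm7 (chr3:107931725-107931753, minus strand): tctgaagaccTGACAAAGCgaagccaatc
Mgst1 (chr6:138140461-138140489, plus strand): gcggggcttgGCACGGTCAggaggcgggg
Sod1 (chr16:90220681-90220739, plus strand): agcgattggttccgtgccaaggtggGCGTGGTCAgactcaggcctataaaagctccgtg
Prdx1 (chr4:116685441-116685499, plus strand): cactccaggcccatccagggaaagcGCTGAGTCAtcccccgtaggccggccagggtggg
The cores began 134 bases before the start in Gclm, 92 in Txnrd1, 133 in Prdx1, 121 in Gsta3, 42 in Gstm5, 129 in Gstm7 and 56 in both Mgst1 and Sod1. In Srxn1 it lay after the start, from base 29 of the transcript. The windows of Txnrd1, Mgst1 and Gstm7 belong to starts well inside the longer annotated genes, and those of Gstm5, Prdx1, Sod1 and Srxn1 to starts slightly inside them. The stretches of Srxn1, Gstm7 and Mgst1 lie in exons of the annotated genes and are printed shorter.

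Levels are FPKM values (fragments divided by gene length and library total) after scaling of the libraries to each other. All 46 genes had a mean of at least 0.1 FPKM and were tested, among 16852 genes. Means ran from 0.417 FPKM in Gsto2 to 734 FPKM in Gsta4, with 11 genes at 100 FPKM or more, 21 between 10 and 100, and 14 below 10. The transferases held 51.3% of the summed level of all 46 genes, the NRF2 targets 21.7%, the peroxiredoxins 13.5%, the glutathione peroxidases 10.2% and the dismutases with catalase 3.22%. Within each role a pair of genes carried most of the sum, namely Gsta4 and Gsto1 (69.9% of the transferases), Txn1 and Nqo1 (65.2% of the NRF2 targets), Gpx1 and Gpx2 (72.9% of the peroxidases), Cat and Sod1 (80.1%) and Prdx1 and Prdx5 (64.4%).

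**Figure D1:**
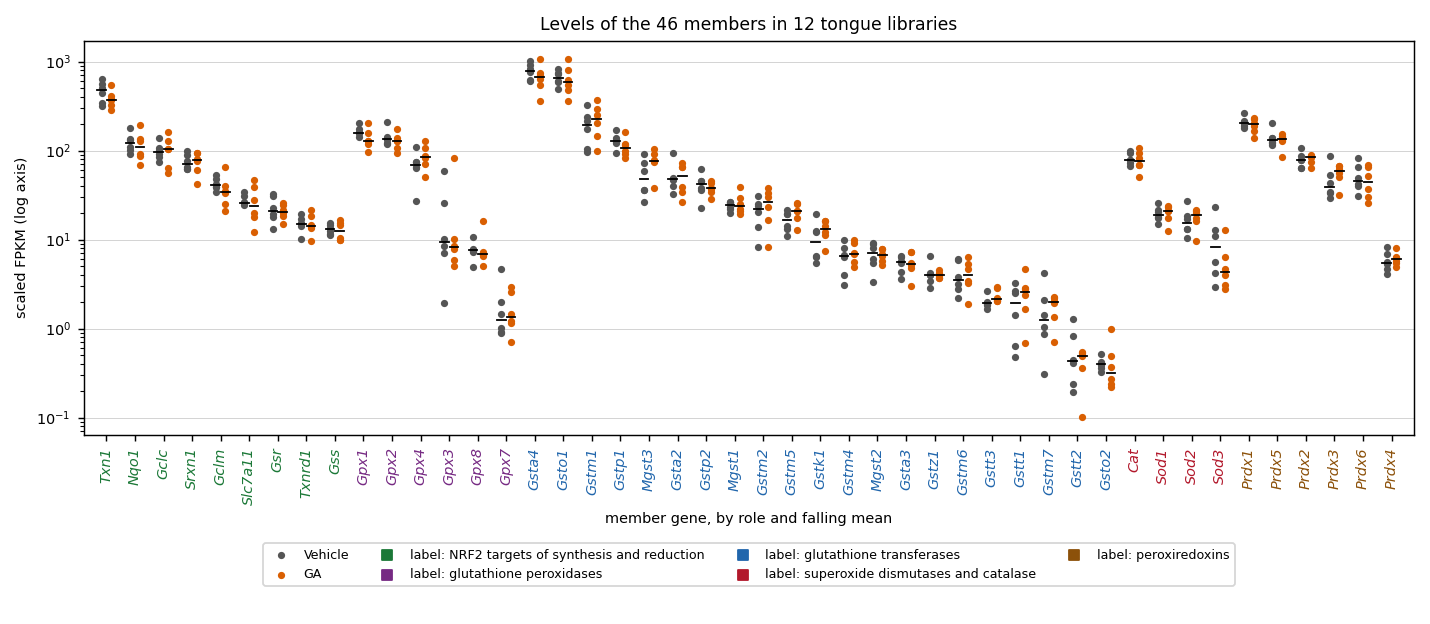
Levels of the 46 genes in scaled FPKM on a log axis, with 1 dot per library (grey, vehicle, orange, GA) and a black bar at each group's median. The gene names are coloured by role, and in each of the 46 genes the dots of the GA group overlap those of the vehicle group.

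The tongue libraries were mixed tissue, and fewer cells of a type and less RNA per cell cannot be told apart in them. Library totals recovered from the FPKM values were 18039832 to 25192573 reads. The 10 oral epithelium markers summed to 15863 to 36651 FPKM in the vehicle group and 12791 to 25997 FPKM in the GA group, and the 10 skeletal muscle markers to 1637 to 13937 FPKM and 2441 to 10656 FPKM. Lipf, a lipase of the lingual glands, was high in vehicle libraries 3 and 5 and GA library 2 (8079 to 26220 FPKM) and at most 0.498 FPKM in the other 9. The neutrophil markers summed to 1108 to 2618 FPKM with vehicle and 235 to 1831 FPKM with GA. This sum and the neutrophil score used below (a mean of log2 levels) ranked the libraries differently. Vehicle library 6 had the highest sum with a score of 1.06, and vehicle library 5 the highest score, 4.34, with a sum of 1902 FPKM. The macrophage markers summed to 119 to 222 FPKM with vehicle and 74.2 to 199.9 FPKM with GA. Sums were also taken for endothelium (14.95 to 68.3 and 38.3 to 56.2 FPKM), adipocytes (17.2 to 141 and 15.8 to 92.7 FPKM), red blood cells (48.0 to 141 and 29.7 to 352 FPKM) and T cells (0.849 to 4.47 and 1.38 to 3.70 FPKM), and the von Ebner gland list followed Lipf. None of the markers read was at 0 in all 12 libraries. Reads on Y-linked genes were present in vehicle libraries 1 to 4 and GA library 1, where Xist had at most 10 reads. The other 7 libraries (vehicle libraries 5 and 6, GA libraries 2 to 6) had none, and 7789 to 19147 Xist reads. Sex, as read from these transcripts, was thus unevenly spread over the groups and cannot be fully told apart from GA.

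No gene of the 46 differed between the groups by the criteria used, an adjusted p (Benjamini-Hochberg) under 0.1 together with a log2 fold change of 0.58 or more in size (0 of 46, and 0% of all 16852 genes). Every one of the 46 had an adjusted p of 0.9999 in limma. At an unadjusted p below 0.05 there were likewise 0 of 46, where 364 of the 16852 genes (2.16%) passed, 188 of them higher with GA (1.12%) and 176 lower (1.04%). The groups overlapped in all 46 genes, whereas 0.0653% of all genes had groups that did not overlap. In 8 of the 46 genes, 5 or 6 GA libraries were above the vehicle median, and in 6 genes 5 or 6 were below it. Of all tested genes, 18.55% had 5 or 6 GA libraries above and 16.18% had 5 or 6 below, and the share with 6 on 1 side was not counted. Point estimates were above 0 in 20 genes and below 0 in 26, with a median log2 fold change of -0.02, close to the median of 0.00 over all tested genes. Only Mgst3 and Sod3 had an estimate beyond 0.58 in size (4.35% of the 46, against 8.57% of all tested genes). The 95% interval of the difference lay within 1 on the log2 scale in 36 of the 46, and within 0.58 in 19, and in the other 27 it reached beyond 0.58 with 6 libraries per group.

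**Figure D2:**
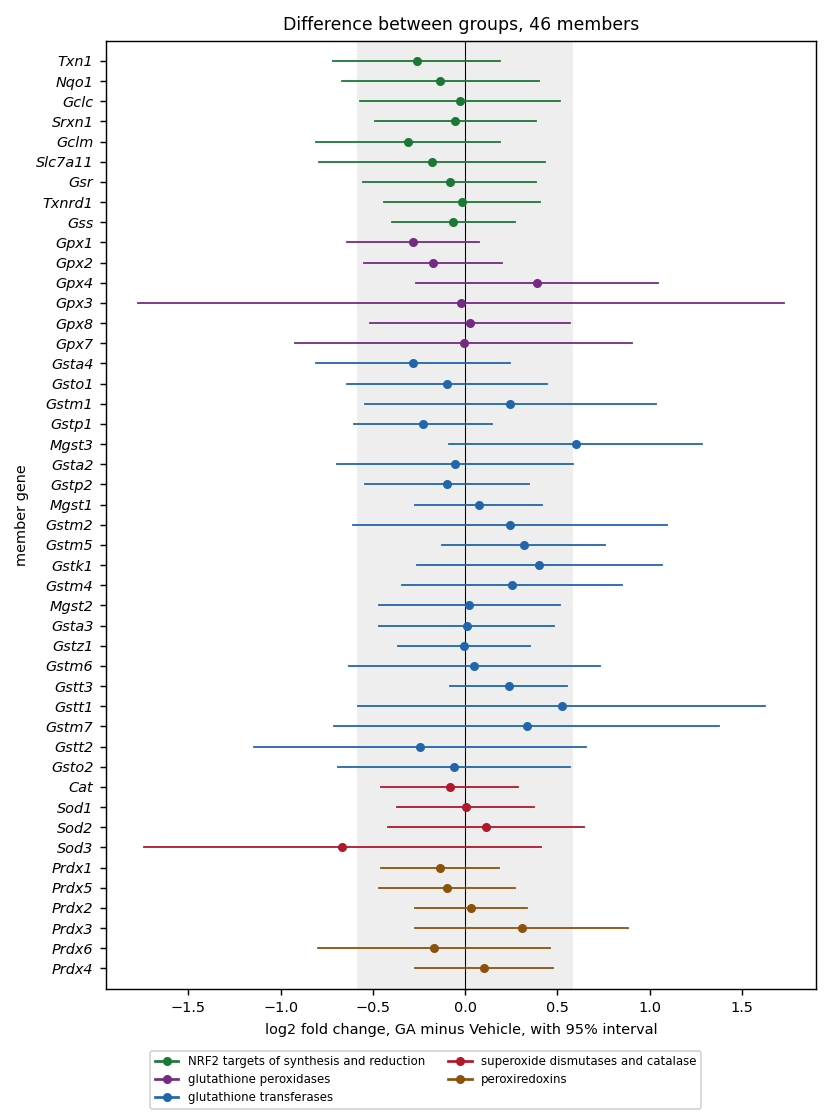
Log2 fold change of each of the 46 genes, GA minus vehicle, with its 95% interval from limma (6 libraries per group), coloured by role. The shaded band marks a size below 0.58, all 46 intervals include 0, and the intervals of Gpx3 and Gstt1 are the widest.

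Among the NRF2 targets, Nqo1 (chromosome 8, 107388225 to 107403206), a quinone reductase and the usual readout of NRF2, was between 90.3 and 180 FPKM in the vehicle group (median 121) and between 69.5 and 196 FPKM in the GA group (median 111). GA libraries held both its highest and its lowest value, and 3 of 6 lay on either side of the vehicle median. Its log2 fold change was -0.13 ± 0.25 (SE), with a 95% interval of -0.67 to 0.40 and an exact permutation p of 0.608 (two-sided, over all 924 divisions of the libraries into 6 and 6). The smallest p this test can give is 0.00216.

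Glutathione synthesis starts with glutamate-cysteine ligase, whose catalytic subunit is Gclc and whose modifier subunit is Gclm. Gclc (chromosome 9, 77754535 to 77794485) ranged from 74.2 to 139 FPKM with vehicle (median 95.6) and from 55.9 to 161 FPKM with GA (median 104), a log2 fold change of -0.03 ± 0.25 (SE). The GA libraries again spanned the vehicle libraries on both sides. Gclm (chromosome 3, 122245557 to 122270732) ranged from 34.6 to 52.8 FPKM with vehicle (median 40.8) and from 20.9 to 64.8 FPKM with GA (median 34.4). In 5 of 6 GA libraries it fell short of the vehicle median, and the exception, GA library 6, was the highest of all 12. The log2 fold change of -0.31 ± 0.23 (SE) had an exact permutation p of 0.249. It was -0.17 without GA library 1 (unadjusted p = 0.442 in limma). Without GA library 6 it was -0.49 (unadjusted p = 0.0153 in limma), and with a covariate for Y-linked reads -0.59 (unadjusted p = 0.0228), with 0 genes called in both fits.

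Slc7a11 (chromosome 3, 49892526 to 50443614), the cystine importer that feeds glutathione synthesis, was steady with vehicle (24.3 to 34.7 FPKM, median 25.997) and spread widely with GA (12.01 to 46.2 FPKM, median 23.8). Its GA values lay on both sides of the vehicle range, with a log2 fold change of -0.18 ± 0.28 (SE). Gss, which adds the glycine of glutathione, had a mean of 13.0 FPKM, and Gsr, which reduces oxidised glutathione, of 21.7 FPKM, with log2 fold changes of -0.06 and -0.08.

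On the thioredoxin side, Txn1 (chromosome 4, 57943373 to 57956411), which encodes thioredoxin, was the most abundant of the 9 targets. It ranged from 315 to 642 FPKM with vehicle (median 477) and from 286 to 552 FPKM with GA (median 374), and the GA values were under the vehicle median in 5 of 6 libraries. The log2 fold change of -0.26 ± 0.21 (SE) did not pass (exact permutation p = 0.238). Txnrd1 (chromosome 10, 82833951 to 82897712), the reductase that recycles thioredoxin, lay between 10.05 and 19.4 FPKM with vehicle (median 15.1) and between 9.56 and 21.6 FPKM with GA (median 14.3). Srxn1 (chromosome 2, 152105516 to 152111376), the sulfiredoxin that repairs overoxidised peroxiredoxins, lay between 61.7 and 98.4 FPKM with vehicle (median 71.0) and between 42.4 and 94.4 FPKM with GA (median 78.2). Both had log2 fold changes near 0 (-0.02 ± 0.20 and -0.05 ± 0.20, SE).

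All 9 targets had a point estimate below 0, with a median log2 fold change of -0.08, also without scaling and with upper quartile scaling, where 49.1% of all tested genes were below 0. The count of 9 was kept in 13 of 29 alternative settings and fell to 3 without GA library 1. Of the 10 oral epithelium markers, 9 were also lower with GA, and their part in these estimates was not tested. With the epithelium score as a covariate the estimate was -0.23 for Gclm, -0.012 for Nqo1, 0.054 for Gclc and 0.016 for Srxn1. Those of Txn1, Txnrd1 and Slc7a11 stayed below 0 with this covariate, and those of Gss and Gsr with it are not given here. A fit of only the 7 libraries that lacked Y-linked reads (vehicle libraries 5 and 6, GA libraries 2 to 6) gave -0.43 for Gclm and -0.067 for Nqo1. In that fit the estimate was 0.30 for Gclc, 0.35 for Srxn1, 0.28 for Txnrd1 and 0.18 for Slc7a11. Gclm and Txn1 stayed below 0 in all 29 alternative settings. GA library 1 was the lowest of all 12 in 6 of the 9 targets and in 14 of all 46 genes (30.4%), where it was the lowest in 8.81% of all tested genes. GA library 4 was the highest in 4 of the 9. The summed level of the 9 targets was 548 FPKM in GA library 1 and 1002 FPKM in GA library 4, and 695 to 1034 FPKM in the vehicle group, so the span within the GA group was wider than that within the vehicle group.

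Of the glutathione peroxidases, Gpx1 (chromosome 9, 108338903 to 108340343), the widely expressed cytosolic enzyme, ranged from 143 to 202 FPKM with vehicle (median 160) and from 97.6 to 204 FPKM with GA (median 127). It was under the vehicle median in 4 of the 6 GA libraries, and GA library 6 was again the highest of all. The log2 fold change was -0.28 ± 0.16 (SE; exact permutation p = 0.126), and -0.40 without GA library 6 (unadjusted p = 0.0119 in limma). Gpx2 (chromosome 12, 76792333 to 76795554), the enzyme of epithelia, ranged from 119 to 210 FPKM with vehicle (median 135) and from 92.7 to 173 FPKM with GA (median 128), a log2 fold change of -0.17 ± 0.17 (SE). Its top value was that of vehicle library 1, well apart from the other 5 of that group, and without it the log2 fold change was -0.060.

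Gpx4 (chromosome 10, 80047166 to 80056439), which reduces lipid peroxides in membranes, leaned the other way. It ranged from 27.3 to 110 FPKM with vehicle (median 69.6) and from 50.1 to 128 FPKM with GA (median 85.0), and 5 of 6 GA values exceeded the vehicle median. The log2 fold change of 0.39 ± 0.30 (SE; exact permutation p = 0.290) was 0.15 without vehicle library 1, its lowest, and 0.22 with the skeletal muscle score as a covariate. Of its 50-base stretches, 34.7% also occur in transcripts of other genes, so its counts of uniquely mapped reads are uncertain.

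Gpx3, the secreted plasma peroxidase, varied most of all 46 genes, from 1.95 FPKM in vehicle library 1 to 81.9 FPKM in GA library 2, a 42.1-fold span. Its next values were 58.8 FPKM in vehicle library 5 and 25.7 FPKM in vehicle library 3, the other 2 libraries with high Lipf, and the remaining 8 were between 5.05 and 10.2 FPKM. The group medians were 9.31 and 8.19 FPKM. Gpx7 and Gpx8, which act in the endoplasmic reticulum, had means of 1.75 and 7.85 FPKM and log2 fold changes of -0.01 and 0.03.

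The most abundant transferase was Gsta4 (chromosome 9, 78182774 to 78209349), which conjugates 4-hydroxynonenal, a product of lipid peroxidation. It ranged from 611 to 1023 FPKM with vehicle (median 793) and from 362 to 1057 FPKM with GA (median 672). Of the GA values, 5 were under the vehicle median and the sixth, GA library 6, was the highest of all, with a log2 fold change of -0.28 ± 0.24 (SE; exact permutation p = 0.281). It was -0.12 without GA library 1 and -0.43 without GA library 6. Gsto1 (chromosome 19, 47854970 to 47864790), an omega transferase, ranged from 486 to 821 FPKM with vehicle (median 662) and from 362 to 1079 FPKM with GA (median 585), a log2 fold change of -0.10 ± 0.25 (SE). Both genes had their lowest value in GA library 1 and their highest in GA library 6.

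Mgst3 (chromosome 1, 167371966 to 167393841), a microsomal transferase with peroxidase activity, had the smallest p of the 46 genes. It ranged from 26.2 to 91.3 FPKM with vehicle (median 47.5) and from 38.4 to 104 FPKM with GA (median 77.0). The vehicle libraries were split, with 3 at 36.2 FPKM or below and 3 at 58.8 FPKM or above, while 5 of 6 GA libraries were at 75.2 FPKM or above and GA library 6 was at 38.4 FPKM. Its log2 fold change of 0.60 ± 0.32 (SE) had a 95% interval of -0.09 to 1.28 and an exact permutation p of 0.102. It was 0.79 without GA library 6 (unadjusted p = 0.0198 in limma), 0.86 with Y-linked reads as a covariate (unadjusted p = 0.0325) and 0.45 with the muscle score as a covariate (unadjusted p = 0.0526).

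The remaining transferases with small p-values had lower levels. Gstm5 (chromosome 3, 107895821 to 107898686) ranged from 11.01 to 21.7 FPKM with vehicle (median 16.8) and from 12.9 to 25.8 FPKM with GA (median 20.96), a log2 fold change of 0.32 ± 0.20 (SE; exact permutation p = 0.169). An antisense gene covers 13.9% of its exon bases, and whether the counting used strand is not stated. Gstt3 (chromosome 10, 75774115 to 75781414), a theta transferase, exceeded the vehicle median in 6 of 6 GA libraries (1.65 to 2.66 FPKM, median 1.92, against 2.06 to 2.94 FPKM, median 2.14), the only one of the 46 with all GA libraries on 1 side. The difference was small, with a log2 fold change of 0.24 ± 0.15 (SE; exact permutation p = 0.117), and 12.5% of its 50-base stretches are shared with other transcripts.

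Gstk1 (chromosome 6, 42245935 to 42250447), the transferase of mitochondria and peroxisomes, ranged from 5.52 to 19.5 FPKM with vehicle (median 9.39) and from 7.44 to 16.1 FPKM with GA (median 13.2). Its log2 fold change was 0.40 ± 0.31 (SE), and 0.61 without vehicle library 3 (unadjusted p = 0.0401 in limma), which held its top value. It was 0.25 without vehicle library 5 and 0.22 with the neutrophil score as a covariate. Gstp1 (chromosome 19, 4035407 to 4037985), the pi transferase, ranged from 94.9 to 171 FPKM with vehicle (median 127) and from 82.7 to 161 FPKM with GA (median 107), a log2 fold change of -0.23 ± 0.17 (SE; exact permutation p = 0.216). It shares 33.7% of its 50-base stretches with other transcripts, chiefly Gstp2, so the share of reads of each is uncertain. For Gstp2 and Gsta2, 54.3% and 49.8% are shared, and for Gstm1 18.9%.

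Over the 21 transferases, 13 estimates were above 0 and 8 below, with a median log2 fold change of 0.05, and the number below 0 moved between 4 and 14 in the alternative settings. The mu class leaned upwards without passing the test, with log2 fold changes of 0.25 in Gstm1, 0.24 in Gstm2, 0.25 in Gstm4, 0.05 in Gstm6 and 0.33 in Gstm7. Slopes of these genes on the neutrophil score were -0.45 to -0.30, and that of Gstm5, also of the mu class, was -0.18. Only those of Gstm1 and Gstm4 had an adjusted p below 0.1, and neither did without vehicle libraries 4 and 5. With those libraries left out, the slopes were -0.54 for Gstm1, -0.25 for Gstm2 and -0.21 for Gstm4. They were -0.08 for Gstm5, -0.65 for Gstm6 and 0.27 for Gstm7. The mean of the neutrophil score was 2.10 with vehicle and 1.24 with GA, and its part in the estimates of the mu class was not tested. Gstm1, the most abundant of the mu class at a mean of 210 FPKM, spanned 96.6 to 373 FPKM over the 12 libraries, with its lowest levels in vehicle library 4, GA library 2 and vehicle library 5. The others had estimates between -0.24 in Gstt2, at a mean of 0.494 FPKM, and 0.52 in Gstt1, at 2.16 FPKM. Between these were Gsta2 (-0.05), Gsta3 (0.01), Gstp2 (-0.10), Gsto2 (-0.06), Gstz1 (-0.01), Mgst1 (0.07) and Mgst2 (0.02).

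Catalase and the dismutases were at lower levels. Cat (chromosome 2, 103453849 to 103485160), the peroxisomal enzyme that splits hydrogen peroxide, ranged from 67.4 to 99.7 FPKM with vehicle (median 78.3) and from 51.0 to 107 FPKM with GA (median 76.4). Sod1 (chromosome 16, 90220754 to 90226329), the cytosolic copper-zinc enzyme, ranged from 15.1 to 25.9 FPKM with vehicle (median 19.0) and from 12.5 to 23.8 FPKM with GA (median 21.2). Neither leaned to 1 side, with log2 fold changes of -0.08 ± 0.17 and 0.00 ± 0.17 (SE). Sod2, the mitochondrial manganese enzyme, had a log2 fold change of 0.12 at a mean of 17.1 FPKM.

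Sod3 (chromosome 5, 52363791 to 52371418), the secreted dismutase of the extracellular matrix, had the largest estimate in size of the 46, a log2 fold change of -0.67 ± 0.50 (SE; exact permutation p = 0.258). It ranged from 2.91 to 23.0 FPKM with vehicle (median 8.27) and from 2.79 to 12.7 FPKM with GA (median 4.33), with 5 of 6 GA values under the vehicle median. Vehicle library 5, GA library 2 and vehicle library 3, the libraries with high Lipf, held its 3 highest values. Vehicle library 4, where Lipf was at 0.0616 FPKM, came next at 10.9 FPKM, near the 12.7 FPKM of both GA library 2 and vehicle library 3. The estimate was -0.36 without vehicle library 5, -0.38 without the 3 libraries with high Lipf and -0.12 with the neutrophil score as a covariate. It was -0.94 without vehicle library 1, -1.28 among the libraries without Y-linked reads and -0.99 with the epithelium score as a covariate (unadjusted p = 0.0292 in limma). The 8 fibroblast markers summed to 103 to 342 FPKM with vehicle and 52.9 to 272 FPKM with GA, also highest in vehicle library 5, and their part in the level of Sod3 was not tested.

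Prdx1 and Prdx5 led the peroxiredoxins. Prdx1 (chromosome 4, 116685544 to 116700822), a cytosolic enzyme and NRF2 target, ranged from 180 to 261 FPKM with vehicle (median 206) and from 138 to 231 FPKM with GA (median 197), a log2 fold change of -0.14 ± 0.15 (SE). Prdx5 (chromosome 19, 6906697 to 6910106), found in mitochondria and peroxisomes, ranged from 116 to 205 FPKM with vehicle (median 131) and from 85.2 to 154 FPKM with GA (median 136), a log2 fold change of -0.10 ± 0.17 (SE). Most of their libraries lay close together, with vehicle library 1 highest in both and GA library 6 lowest in Prdx5, where an antisense gene covers 19.1% of the exon bases. Prdx2 and Prdx4 had log2 fold changes of 0.03 and 0.10, Prdx6, which acts on phospholipid peroxides, one of -0.17, and the mitochondrial Prdx3 one of 0.31.

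The rest of the pathway was read from 6 further lists. Of 12 NRF2 regulators, 8 were higher and 4 lower with GA, and 1 passed an unadjusted p of 0.05, as 2.16% of all tested genes did. Nfe2l2 (chromosome 2, 75675513 to 75704641) itself ranged from 64.1 to 138 FPKM with vehicle (median 80.6) and from 62.5 to 101 FPKM with GA (median 78.4), a log2 fold change of -0.09 ± 0.18 (SE). Keap1 (chromosome 9, 21229730 to 21239361) slightly exceeded the vehicle median in 6 of 6 GA libraries (9.95 to 14.2 FPKM, median 11.2, against 11.3 to 13.8 FPKM, median 13.0), a log2 fold change of 0.10 ± 0.10 (SE; exact permutation p = 0.325). Both ranges overlapped. The 1 regulator was Bach1 (chromosome 16, 87698945 to 87733346), a repressor that occupies the same elements as NRF2. It ranged from 7.90 to 12.3 FPKM with vehicle (median 11.04) and from 8.07 to 9.95 FPKM with GA (median 8.39), a log2 fold change of -0.27 ± 0.11 (SE; unadjusted p = 0.0348, adjusted p = 0.9999 in limma; exact permutation p = 0.0390), and 6 of 6 GA values were under the vehicle median.

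Of 13 tested genes that make superoxide or peroxide, 3 were higher and 10 lower with GA. An unadjusted p of 0.05 was passed by 1 of them and by 2.16% of all tested genes. This was Xdh (chromosome 17, 73883895 to 73950196), xanthine dehydrogenase, which makes superoxide and peroxide in its oxidase form. It ranged from 15.8 to 26.8 FPKM with vehicle (median 23.7) and from 14.1 to 20.1 FPKM with GA (median 16.4), with 6 of 6 GA values under the vehicle median. The log2 fold change was -0.42 ± 0.14 (SE; unadjusted p = 0.00909, adjusted p = 0.9999 in limma; exact permutation p = 0.0173). Neither Bach1 nor Xdh passed the adjusted criterion, and they were the only genes of the 6 lists with an unadjusted p below 0.05. Hmox1, heme oxygenase, which was chosen after its values were seen, ranged from 35.5 to 111 FPKM with vehicle (median 45.4) and from 29.3 to 50.5 FPKM with GA (median 31.1), and 4 of 6 GA values were under the vehicle median. Its log2 fold change was -0.62 ± 0.30 (SE; unadjusted p = 0.0586 in limma; exact permutation p = 0.0952). In the other lists, Hmox1 included, no gene had an unadjusted p below 0.05 and the directions were mixed, with 7 higher and 15 lower among 22 further NRF2 targets, 8 and 11 among 19 genes of glutathione handling, 11 and 7 among 18 genes of selenoproteins and their synthesis, and 5 and 2 among 7 genes of mitochondrial thioredoxin and sestrins. Median log2 fold changes of the 6 lists ran from -0.24 for the superoxide and peroxide sources to 0.14 for mitochondrial thioredoxin and sestrins.

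Over the 46 genes, the median SD within groups was 0.43 on the log2 scale, against 0.39 over all tested genes. For the 12162 genes that averaged 1 FPKM or more, a level that all but 2 of the 46 reached, the median was lower, at 0.305. Among the 46, the SD ran from 0.23 in Gstt3 to 1.56 in Gpx3. The highest library exceeded the lowest by more than 4-fold in 9 of the 46 genes and by less than 2-fold in 5. To describe this variation, the mean log2 level of 10 skeletal muscle markers was taken as a muscle score in each library, which ran from 6.55 in vehicle library 1 to 9.74 in vehicle library 3, with means of 8.02 with vehicle and 8.32 with GA. A slope on this score was fitted with the group in limma, which was chosen after the data were seen.

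Of the 46 genes, 13 followed the muscle score at an adjusted p below 0.1 (28.3%), close to the share of all genes (26.8%). They rose in 11 cases, where 15% of all genes rose, and fell in 2, where 11.8% fell. The mitochondrial enzymes Prdx3 and Sod2 rose by 0.52 ± 0.06 and 0.47 ± 0.06 (SE) on the log2 scale for each unit of the score, and Gpx4 by 0.58 ± 0.07 (adjusted p = 0.000121, 0.000188 and 0.000216 in limma). Prdx3 stood at 29.2 FPKM in vehicle library 1 and 87.7 FPKM in vehicle library 3, the ends of the score. Sod1 rose by 0.28 ± 0.06, Gstk1 by 0.53 ± 0.11, Mgst3 by 0.51 ± 0.12 and Gstt1 by 0.87 ± 0.18, and the others that rose were Gstm7, Gstz1, Gstt2 and Gpx3. Gsta4 and Gpx2 fell, by 0.33 ± 0.10 and 0.22 ± 0.08.

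Without vehicle libraries 1 and 3, the 2 farthest from the median score, 8 of the 46 genes passed (12.3% of all genes did). These were Gpx4, Prdx3, Sod2, Sod1, Gstt1, Mgst3 and Gstk1 from the 13, and Gsto2, which fell. Gsta4 and Gpx2 no longer passed (adjusted p = 0.124 and 0.349), with slopes of -0.48 and -0.20 in place of -0.33 and -0.22. None of the 9 NRF2 targets passed in either fit. Nqo1 had a slope of -0.22 ± 0.14 (SE) and Gclm one of -0.16 ± 0.13, with adjusted p-values of 0.285 and 0.440, and Txn1 came nearest at -0.25 ± 0.10 (adjusted p = 0.108).

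**Figure D3:**
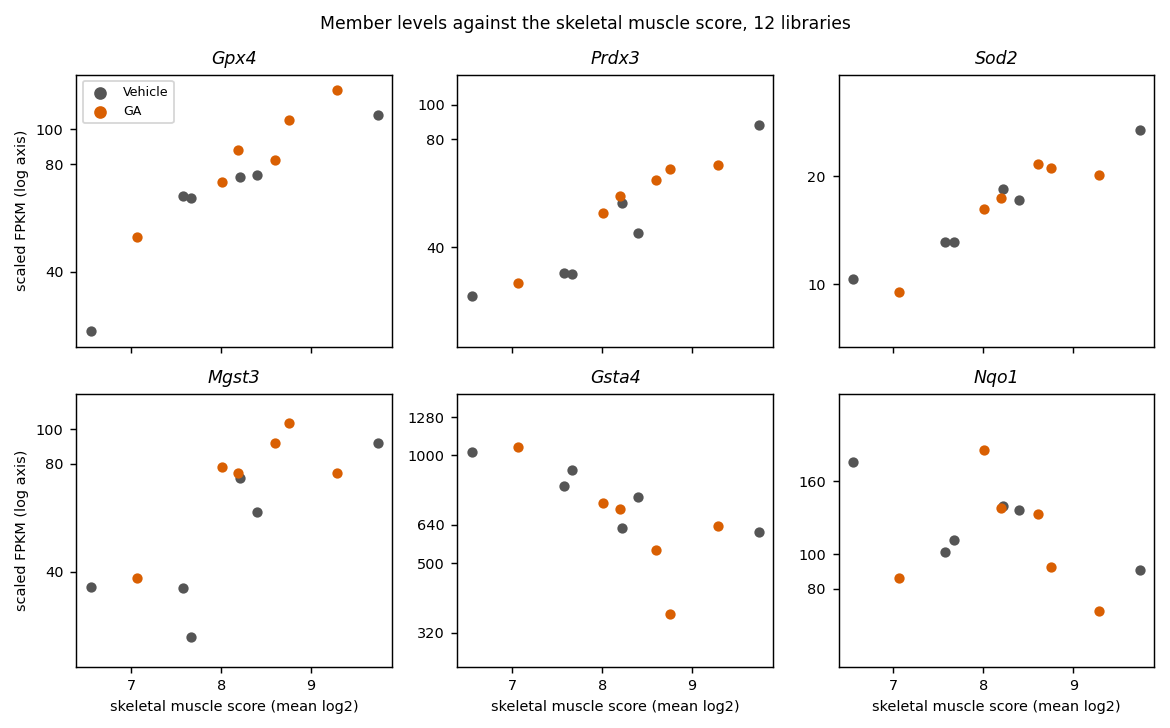
Scaled FPKM on a log axis against the skeletal muscle score, the mean log2 level of 10 muscle markers, in 6 vehicle (grey) and 6 GA (orange) libraries, with the same fold span in each panel. Gpx4, Prdx3, Sod2 and Mgst3 rise with the score in both groups, Gsta4 falls (a slope that did not pass without vehicle libraries 1 and 3), and the slope of Nqo1 did not pass.

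Corresponding slopes were fitted on an oral epithelium score and a neutrophil score. On the epithelium score 7 of the 46 passed (15.2%, against 15.9% of all genes). Prdx3, Gpx3, Gpx4, Sod2, Sod1 and Sod3 fell with it, where 8.42% of all genes fell, and Gstm6 rose, where 7.47% rose. Without GA library 2 and vehicle library 3 none of them passed, and 0 of all genes did, although the slopes were about as large (-1.04 in place of -1.09 for Prdx3, -1.19 in place of -1.16 for Gpx4 and -1.97 in place of -1.79 for Sod3). On the neutrophil score 5 passed (10.9%, against 2.75% of all genes), with Sod3, Gsr and Gpx3 rising (2.51% of all genes rose) and Gstm1 and Gstm4 falling (0.237% fell). Sod3 rose by 0.64 ± 0.13 (SE) and Gsr by 0.26 ± 0.06 for each unit of that score, and Gstm1 fell by 0.45 ± 0.10. Without vehicle libraries 4 and 5, the 2 with the highest neutrophil score, 0 of the 46 passed and 0.0716% of all genes did. With those libraries left out the slopes were 0.83 for Sod3, 1.71 for Gpx3 (0.96 with all libraries), -0.54 for Gstm1, 0.22 for Gsr and -0.21 for Gstm4 (-0.32 with all libraries), so the calls were lost while most slopes stayed about as large or larger.

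**Figure D4:**
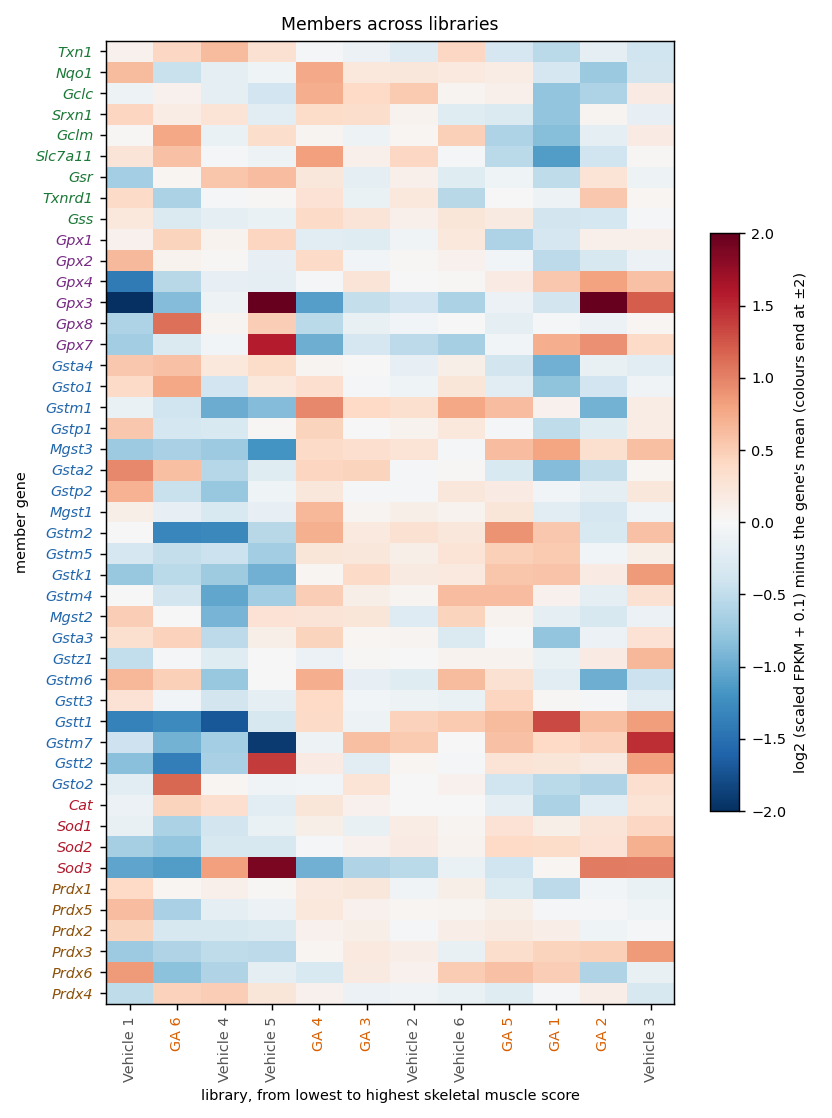
Log2 level of each of the 46 genes minus its own mean (red higher, blue lower, colours end at 2 on either side), in the 12 libraries ordered by muscle score from vehicle library 1 to vehicle library 3. Prdx3, Sod2, Gpx4 and Gstt1 turn from blue to red along the order, and Gpx3 stands out in vehicle library 5, GA library 2 and vehicle library 3. Sod3 is high in these libraries and in vehicle library 4, and GA library 1 is blue in most NRF2 targets.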

How the data were processed

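Reads of 12 tongue libraries were mapped by the authors to mm10 (HISAT2), assigned to genes where they mapped uniquely (featureCounts) and deposited as FPKM values, 1 file per library. Versions and the strand setting are not given in the sources used here. Unnamed rows were not used. Low FPKM values were whole multiples of 1 read, so totals were recovered with GENCODE M21 exon lengths less a constant per library (17 to 24.2 bases). The constant and the total were chosen so that most low values came out whole. With them 97.8% to 98.3% of low values were whole, within 0.02 reads, a share that was itself fitted.

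Scaling between libraries used the trimmed mean of log ratios. The 16852 genes whose mean reached 0.1 FPKM were fitted on log2(FPKM + 0.1) with limma 3.58.1 in R 4.3.3 (eBayes with trend), a scale that understates changes of low genes, with Benjamini-Hochberg adjustment over all genes. Single genes were also tested with a two-sided exact permutation test. The criteria (adjusted p below 0.1, absolute log2 fold change of at least 0.58) were those of the study. Its count test (edgeR) was not used as the main test because the files hold FPKM. With that test the study reported genes as differing at these criteria, and it lists Hmox1 among the genes lower with GA. On simulated data with 200 of 16852 genes altered, the fit recovered 91 where the log2 shift was 1 and 166 where it was 2. It also called 16 and 18 unaltered genes. The simulated noise was drawn for each gene on its own, whereas many genes of these libraries varied together. These counts therefore need not hold for the real data. A voom fit on recovered reads called 0 of 14484 genes. Coordinates are GRCm38 (mm10).

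The members and all lists were chosen with earlier results of these data known. Full values are given for 6 NRF2 core genes, the 2 most abundant genes of each role, the 10 with the smallest p, Nfe2l2, Keap1 and other pathway genes at an unadjusted p below 0.05. Gpx3, Gstm1, Hmox1 and the genes named with slopes were added after their values were seen. Shared stretches are 50-base runs of a gene's transcripts that occur in other genes' transcripts. Alternatives were other pseudocounts, filters, scalings and limma options, covariates, a replicate block and leaving out libraries. Marker lists were skeletal muscle, oral epithelium, von Ebner gland, neutrophil, macrophage, fibroblast, endothelium, adipocyte, red blood cell and T cell.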

Additional observations from a re-analysis of the deposited data

Results flagged for a closer look

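In 5 of 52 groups of 6 values, 1 library stood apart from the other 5 of its group by Dixon's ratio of gap to range, where chance flags about 1 in 20 groups. Vehicle library 1 was the highest of its group in Gpx2 (210 FPKM, next 142, ratio 0.7497), Prdx5 (205 FPKM, next 139, ratio 0.741) and Gstt3 (2.66 FPKM, next 1.99, ratio 0.664), and it had the lowest muscle score of all 12 libraries. GA library 6 was the lowest of its group in Prdx5 (85.2 FPKM, next 129, ratio 0.634). GA library 2, 1 of the 3 with high Lipf, was the highest of its group in Sod3 (12.7 FPKM, next 6.33, ratio 0.644).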

How the results depend on the processing

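In all 29 alternative settings 0 of the 46 genes were called, and over all genes 0 were called except 1 without vehicle library 4. At an unadjusted p below 0.05, where the main count was 0, there were 3 with the sex term (a covariate for Y-linked reads; Gclm, Gpx1 and Mgst3), 1 with an epithelium score as a covariate (Sod3) and 0 to 4 when 1 library was left out (1 without vehicle library 1, 3 without vehicle library 3, 1 without GA library 4 and 4 without GA library 6, where 418, 802, 309 and 839 of all genes passed). The median log2 fold change of the 46 stayed within 0.15, the SD of the library medians, and was -0.02 to 0.06 over filters, pseudocounts, scalings, limma options and the other library choices, -0.04 with voom on recovered reads, -0.08 with a neutrophil term, -0.11 with the sex term and -0.08 to 0.04 when 1 library was left out. The epithelium term, voom and the slopes were chosen after seeing the data.

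Same-numbered libraries of the groups did not deviate together (correlations of -0.37 to 0.08, none closest to its own number), so the numbers were not taken as pairs. With a replicate block 0 of the 46 were called, 0 had an unadjusted p below 0.05 (245 of all genes, against 364), and the median stayed at -0.02.

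Of 754 values of 26 genes in other settings, 42 had the opposite sign, and none was called. In the libraries without Y-linked reads the log2 fold change was 0.30 for Gclc, 0.35 for Srxn1, 0.28 for Txnrd1, 0.18 for Slc7a11, 0.032 for Gpx2 and 0.19 for Cat. With the epithelium term it was 0.054 for Gclc, 0.016 for Srxn1, 0.027 for Gsto1 and -0.11 for Sod1, with the muscle term 0.0074 for Srxn1 and -0.077 for Sod1, with the neutrophil term 0.032 for Txnrd1 and -0.037 for Sod1, with the gland term 0.031 for Txnrd1, with the sex term 0.091 for Txnrd1, and without the 3 libraries with high Lipf 0.031 for Gclc. When 1 library was left out, it ran from -0.30 to 0.00082 for Nqo1, -0.18 to 0.13 for Gclc, -0.13 to 0.10 for Srxn1, -0.13 to 0.11 for Txnrd1, -0.36 to 0.025 for Slc7a11, -0.26 to 0.052 for Gsto1, -0.18 to 0.034 for Cat, -0.069 to 0.13 for Sod1, -0.15 to 0.021 for Prdx5 and -0.17 to 0.047 for Nfe2l2. The cause was not tested.

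Without the 2 libraries farthest from the median score, 8 of the 46 followed the muscle score in place of 13, 0 the epithelium score in place of 7 and 0 the neutrophil score in place of 5, while slopes such as -1.04 (from -1.09) for Prdx3 on epithelium and 0.83 (from 0.64) for Sod3 on neutrophils stayed about as large. Depth limits the precision of the 8 of the 46 that had fewer than 100 reads in at least 1 library (11 at the lowest).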
